A study of Homo sapiens with 2 samples.

Results

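The cytosines described here are the intronic ones of protein-coding genes. A site was taken when it had a coverage of at least 10 (unconverted plus converted counts), lay inside the span of a protein-coding gene on the transcribed strand (GENCODE v44 lifted to GRCh37, the assembly also called hg19), and fell in no exon of any transcript of either strand. In MCF10A 27169 of the 1648248 sites of that coverage met this rule (1.65%), in 648 genes, and in MDA-MB-468 152223 of 1520418 did (10.01%), in 1944 genes. The rule used coverage and position and not the state of the cytosine. The study treated poly(A)-selected RNA of both lines with sodium bisulfite and deposited, per cytosine, the counts of unconverted and converted reads. MCF10A is a non-tumorigenic mammary epithelial line, MDA-MB-468 a breast adenocarcinoma line known for amplification of EGFR, and no treatment is named for either. The labels give DMEM for both lines, while the methods give DMEM/F12 with horse serum, EGF, hydrocortisone and insulin for MCF10A and RPMI with bovine serum for MDA-MB-468. Each line was 1 library, so nothing below compares the lines over replicates, and the 95% Wilson intervals cover counting error alone and are too narrow, because neighbouring cytosines are read by the same molecules. The total was 66290255 counts for MCF10A and 78345956 for MDA-MB-468. Where paired values stand without a name, MCF10A comes first. KRT7, a keratin of simple epithelia, was read in both lines, with a median exonic coverage of 166.5 and 116.

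Bisulfite turns unmethylated cytosine into uracil and leaves 5-methylcytosine (m5C) as cytosine, so an unconverted count can be m5C, or a cytosine that escaped conversion because it was paired or poorly denatured, or a read placed at the wrong locus. Introns are removed before an mRNA leaves the nucleus. Intronic sequence in poly(A)-selected RNA can come from introns that were kept or not yet spliced, from transcripts ending inside an intron, from unannotated exons, from internal runs of A, or from traces of DNA. Human 28S rRNA is known to carry m5C set by NSUN5 and NOP2, and copies of ribosomal sequence are scattered through the introns of unrelated genes. Bisulfite removes most C from a read, so short repeats rich in C and T become alike.

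The sequences below carry the main patterns. Each is the transcribed strand, 5′ to 3′, read from GRCh37. In the first set the capital marks 1 named cytosine. HFM1, GCNT1 and RYR2 matched ribosomal DNA, NDUFB7 and FAM20C did not.
HFM1, chr1:91852852-91852876, minus strand: tttttgatccttCgatgtcggctct
GCNT1, chr9:79186647-79186671, plus strand: gagatggggcatCgccgcggagcct
RYR2, chr1:237766533-237766557, plus strand: cttggtggaatcCgcggggaaagaa
NDUFB7, chr19:14680303-14680327, minus strand: ggtgcctatcccCgtgcaactgaac
FAM20C, chr7:198265-198289, plus strand: ctgggggtgaatCctggctctgcca

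In the second set the capitals mark every cytosine called m5C in the line named. MAP4K4, KIF26B and EYA2 stand for stretches that hold no G, EGFR for a long run of calls in MDA-MB-468, and OOEP, ACTB and HMGA1 for runs called in both libraries.
MAP4K4 in MCF10A, chr2:102376023-102376052, plus strand: CCcCattcCCctCctCtctCCCctCCcCat
KIF26B in both, chr1:245601254-245601283, plus strand: cctcaaacttttCCctctCattactctctt
EYA2 in both, chr20:45630400-45630429, plus strand: ttattttCttCtttcttctCttCattcttt
EGFR in MDA-MB-468, chr7:55163679-55163708, plus strand: CagagaCaCaCagaCaCaCaCaggCaCaCa
OOEP in both, chr6:74082982-74083010, minus strand: gtgttCttgaCtCCgCtgCtCgCCatgtc
ACTB in MDA-MB-468, chr7:5569612-5569640, minus strand: gtcgCCgCggCtCCCgggCgcttgcgcgc
HMGA1 in MDA-MB-468, chr6:34206023-34206051, plus strand: tgcgcCCCtCCCCCCgCgCgccctggccc

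Introns were sparsely read. Of the 242582579 intronic cytosines that the annotation defines, 0.0112% (MCF10A) and 0.0628% (MDA-MB-468) were members, while 6.09% and 5.03% of the 25762242 exonic cytosines reached the same coverage. The median coverage of a member was 13 in both lines, against 18 for exonic sites. Members fell in 1076 and 4166 introns, where an intron is an exon-free gap of the gene numbered from its 5′ end. Among introns with at least 50 cytosines and at least 1 member, 76.6% (of 972) and 76.7% (of 3876) had under 10% of their cytosines covered. A minority was read over most of its length: 40 introns of 21 genes in MCF10A and 108 introns of 71 genes in MDA-MB-468 had over 50% of their cytosines covered.

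A few genes held a large share of the members. The 8 leading genes supplied 31.2% and 19.6% of members, while 224 of 650 and 417 of 1955 genes had under 5 (here a site in overlapping genes is listed under the joined name). In MCF10A these 8 were AKT2, a kinase of insulin signalling, with 2151 members, FAM20C, a kinase of secreted proteins, with 1361, the efflux transporter ABCC3 with 1206, ANPEP, an aminopeptidase of the cell surface, with 1161, the keratin KRT7 with 670, fibronectin FN1 with 667, the laminin chain LAMB3 with 657 and the corepressor CTBP1 with 613. In MDA-MB-468 the receptor tyrosine kinase EGFR led with 11679 members, 7.67% of the total. It was followed by VOPP1, a neighbour of EGFR on chromosome 7, with 5886, the syndecan SDC1 with 2815, the receptor phosphatase PTPRF with 2708, the Wnt coactivator BCL9L with 2049, MYEOV with 1717, KRT7 with 1519 and the glycolytic enzyme GPI with 1441.

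Most of these leading genes were read in 1 library far more than in the other. AKT2 had 12 members in MDA-MB-468, ANPEP 45, BCL9L 27 in MCF10A and GPI 2. ABCC3 had 538 members in MDA-MB-468 and CTBP1 425, so both were read in the introns of either line. The number of members depends on coverage at a fixed minimum, and with 1 library each splicing, expression and library make-up cannot be told apart as its source.

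**Figure D1:**
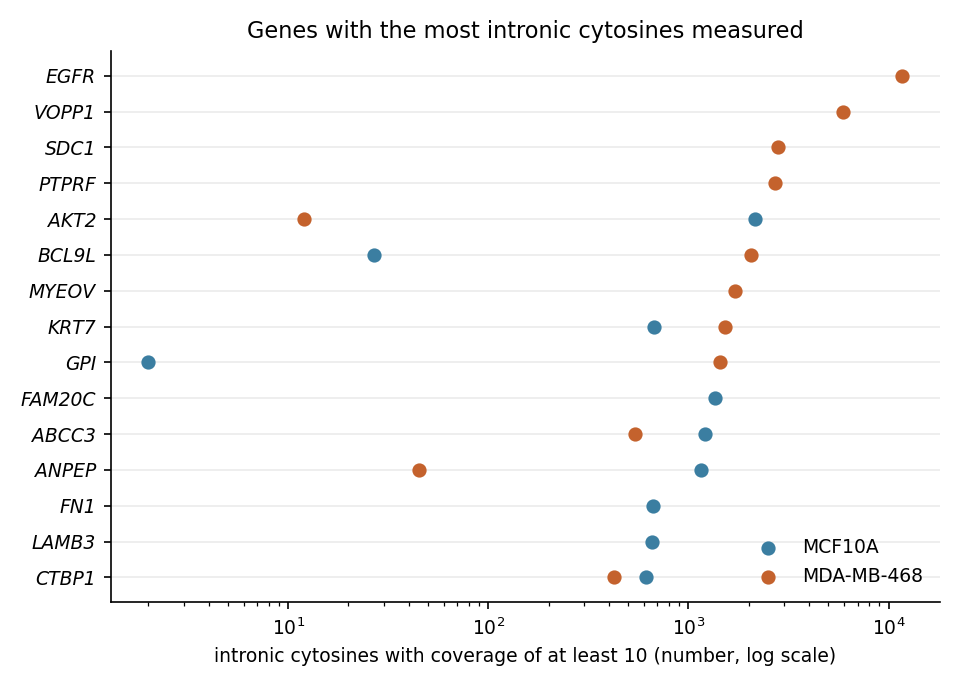
Number of intronic cytosines with coverage of at least 10 (x axis, log scale) for the 8 genes with the most members in each line (y axis), 1 point per library. A gene with no point for a library had no member there. AKT2 has 2151 members in MCF10A but 12 in MDA-MB-468, and EGFR has 11679 in MDA-MB-468 alone.

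Single introns accounted for much of this. In EGFR, 4792 of the 14200 cytosines of the second intron (33.7%; chr7:55113698-55177415) and 2209 of the 5126 of the first (43.1%; chr7:55087059-55111525) were covered, at median coverages of 23 and 26. The fourth intron of SDC1 had 2374 of 4646 cytosines covered (51.1%; chr2:20405186-20422963). GPI was read over 1392 of the 2144 cytosines of its intron 13 (64.9%; chr19:34872504-34883100). In MCF10A the third intron of FAM20C was read nearly throughout, at 368 of 379 cytosines (97.1%; chr7:195733-197129) with a median coverage of 57, and the fourth at 921 of 3241 (28.4%; chr7:197576-208897) with a median coverage of 79. The first intron of NPDC1 followed with 482 of 532 (90.6%; chr9:139938545-139940329). AKT2 had 812 of 1593 cytosines of intron 9 covered (50.97%; chr19:40776677-40785013), and ANPEP 919 of 1818 of intron 3 (50.6%; chr15:90350177-90357345).

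The share of unconverted counts over all members was 1.67% in MCF10A (1.65 to 1.69) and 1.24% in MDA-MB-468 (1.23 to 1.25). These pooled values were set by a few stretches. Members within 100 nt of each other were joined. They were aligned, with no minimum of identity, to the ribosomal DNA repeat on an unplaced contig of GRCh37. Stretches that matched it (rDNA-like, a class made after the data were seen) held 510 and 654 members, which is 1.88% and 0.430% of members, but 65.7% and 70.8% of the intronic counts. Without them the unconverted share was 1.80% (1.77 to 1.84, 541433 counts) in MCF10A and 1.51% (1.49 to 1.52, 2639891 counts) in MDA-MB-468. Exonic sites of protein-coding genes had 1.93% (1.93 to 1.94) and 1.71% (1.71 to 1.72). The pooled intronic share was below the exonic one in both libraries, and the difference was not tested, since a library is 1 sample. The background used for calling, from exons and the mitochondrial chromosome, was 1.99% and 1.81%.

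The comparison within genes gave the same order. Among genes with at least 100 intronic and 100 exonic sites and no rDNA-like stretch, the intronic share was below the exonic one in 30 of 50 genes (MCF10A) and in 195 of 281 (MDA-MB-468). The medians over genes were 1.45% in introns and 1.65% in exons in MCF10A, and 1.26% and 1.54% in MDA-MB-468. In FAM20C the intronic share was 1.29% (1.22 to 1.36) and the exonic share 2.53%. EGFR had 1.20% (1.16 to 1.23) in its introns and 1.66% in its exons. KRT7 had 1.39% in introns and 1.80% in exons in MCF10A, and 1.18% and 1.25% in MDA-MB-468. The reverse was seen in KRT19, a keratin, where 6.36% of intronic counts (5.995 to 6.75) and 1.45% of exonic counts were unconverted, and in EPPK1, a keratin-binding protein, with 3.73% (3.47 to 4.02) and 1.27%. Among sites with coverage of at least 10, introns were read at a lower depth than the exons of the same gene. The median ratio of coverage was 0.436 and 0.632. Cytosines under that minimum are left out, so the ratio does not give the depth of whole introns.

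The opposite strand of protein-coding introns, whether or not they held members, had far fewer sites but a larger pooled unconverted share. No exon of either strand is annotated at these sites. There were 1308 sites in MCF10A with 4.53% unconverted (4.49 to 4.57), and 4945 in MDA-MB-468 with 3.54% (3.52 to 3.55). They held 981827 and 5620654 counts at median coverages of 18 and 13, so a minority of deep sites set the pooled shares. Stretches like ribosomal DNA were not left out here. Of these sites 8.87% and 8.19% passed the test for m5C described next. The make-up of these opposite-strand reads was not tested.

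A site was called m5C when its unconverted counts exceeded the background of its library in a one-sided Fisher's exact test, at a false discovery rate of 0.05 over every site of the table with coverage of at least 10. In MCF10A 246 of 27169 members were called, 0.905% (0.800 to 1.03), beside 1.08% of all sites tested in that library. In MDA-MB-468 958 of 152223 were called, 0.629% (0.591 to 0.670), beside 0.926% of all sites tested. Exonic sites were called at 0.844% (12687 sites) and 0.718% (8886 sites). Outside the rDNA-like stretches the intronic calls were 194 (0.728%) and 885 (0.584%). Both shares therefore lay near those of exons and below the whole table, and they are no result that sets introns apart. The test needs 4 unconverted counts at a coverage of 10, that is a ratio of 40%, and 9 or 10 at a coverage of 100, so at the median intronic coverage a low level of m5C was not detectable.

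Calls were spread unevenly over genes. In MCF10A 46 genes held a call and 18 held at least 5, and in MDA-MB-468 162 and 60. The 6 genes with the most calls in MCF10A were FN1 (20), ABCC3 (18), MAP4K4 (18), a kinase of stress signalling, PMF1 (14), a kinetochore protein whose locus overlaps PMF1-BGLAP, SLCO5A1 (12), of the organic anion transporter family, and ACTB (11), cytoplasmic actin. They held 37.8% of all calls. In MDA-MB-468 the 6 were EGFR (65), SDC1 (38), KRT19 (37), VOPP1 (34), the tropomyosin TPM4 (31) and EPPK1 (27), with 24.2% of calls.

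The genes with the most members were not those with the highest share called. EGFR had the most calls but 0.557% of its members were called, below the background of the table, whereas 11.01% of the 336 members of KRT19 were called. Of those 336 members 306 lay in its first intron. ACTB stood out in both libraries, with 12.2% of 90 members (11) and 13.0% of 185 (24) called, and with unconverted shares of 7.78% (6.43 to 9.38) and 4.44% (4.004 to 4.93). Its exons had 2.13% and 1.53%. In contrast PTPRF had 1 call among 2708 members, and ANPEP, KRT7 and LAMB3 had none in MCF10A among 1161, 670 and 657.

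Called sites sat next to each other. A second call lay within 10 nt of 79.3% (73.8 to 83.9) and 87.2% (84.9 to 89.1) of the intronic calls, beside 87.2% and 88.0% of all nuclear calls of those libraries. Joined over gaps of 10 nt, the calls formed 98 and 313 runs. Single calls made up 51 and 123 of these, whereas 13 and 73 runs of at least 5 calls held 100 and 509 calls. The longest run in MCF10A had 18 calls over 46 nt in MAP4K4. In MDA-MB-468 EGFR had a run of 13 calls over 35 nt in its second intron, and CASP14 and TPM4 had 12 each. With a call in the neighbourhood taken at 50 nt, 29 and 87 calls outside the rDNA-like stretches stood alone.

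Methylation ratios of called sites, the unconverted share at 1 site, covered the whole range. The medians were 40% and 36.4%. A ratio of at least 90% was found at 41 called sites of MCF10A (16.7%) and 57 of MDA-MB-468 (5.95%), beside 3.82% and 1.14% of exonic calls. This difference from exons was not tested, and the 41 sites came from 12 stretches and the 57 from 22.

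**Figure D2:**
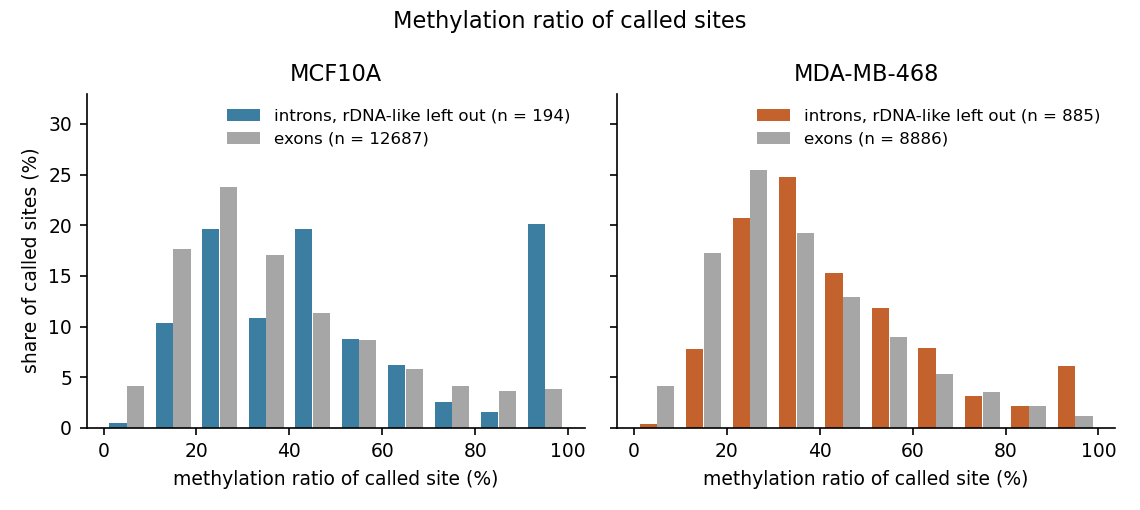
Share of called sites (y axis, %) by methylation ratio (x axis, %, bins of 10) for introns without rDNA-like stretches and for exons, in MCF10A (left) and MDA-MB-468 (right). In MCF10A 20.1% of the 194 intronic calls fall in the top bin, beside 3.82% of the exonic calls.

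Most cytosines around these sites were either nearly all converted or nearly all unconverted. Within 25 nt of a called site with a ratio of at least 90%, there were 129 members in MCF10A, of which 41 had at least 90%, 81 at most 10% and 7 a value between. In MDA-MB-468 there were 142, with 57, 72 and 13. Both libraries together had 29 stretches with a called site of at least 90%. Of these 18 held no G on the transcribed strand between their first and last member. Leaving out the 7 shorter than 7 nt, 11 of 22 held none. How often other intronic stretches of such length hold no G was not counted.

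MAP4K4, KIF26B and EYA2 held unconverted and converted cytosines side by side. In MAP4K4 32 cytosines were read in MCF10A by 20 to 28 counts, of which 18 had a ratio of 96.4% to 100% and 14 had 0%. Of the 20 cytosines in the window printed above, 13 were unconverted and 7 converted, and all had a coverage of 28. In KIF26B, a kinesin, the same 5 of 21 cytosines had a ratio of at least 93.1% in both libraries, at coverages of 24 to 29 and 17 to 20, and no other exceeded 5%. In EYA2, a transcriptional coactivator and phosphatase, 4 of 8 cytosines were at 100% in both libraries (coverage 20 and 21) and the other 4 at 0%. The values alternated between neighbouring cytosines at nearly constant coverage. Whether the reads came from these loci was not tested.

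Other runs had called cytosines that were partly unconverted. The 9 covered cytosines of the OOEP run (an oocyte gene, first intron) were all called in both libraries, at 15.7% to 20% with 92 to 108 counts in MCF10A and at 27.0% to 35.5% with 26 to 37 counts in MDA-MB-468. In ACTB the called cytosines of the printed window had 54.5% to 58.3% in MCF10A at 11 or 12 counts, and 25% to 40% in MDA-MB-468 at 28 to 49, and the other 3 and 4 covered cytosines of the window had at most 7.41%. The printed HMGA1 window was read at 10 to 12 counts in MCF10A and 10 to 14 in MDA-MB-468. Its called cytosines had 36.4% to 50% and 33.3% to 54.5%. In the printed EGFR window every one of the 11 covered cytosines was called, at 35% to 80%, with coverages of 11 to 20.

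**Figure D3:**
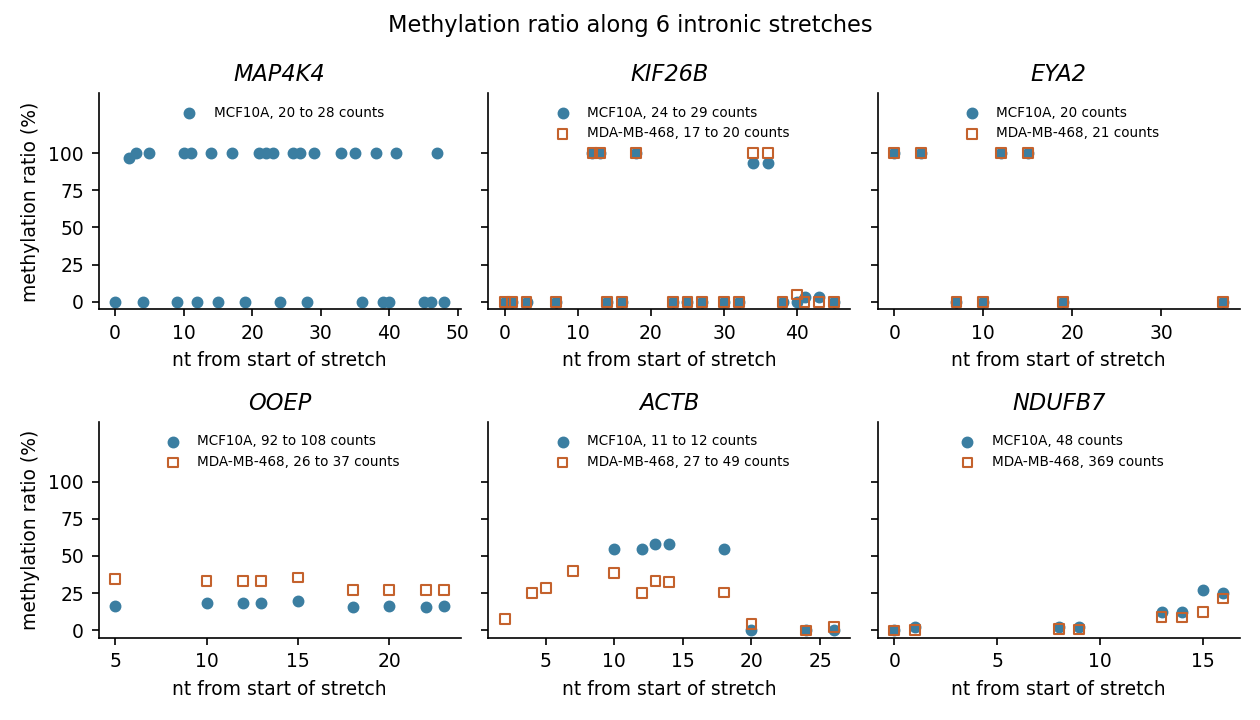
Methylation ratio (y axis, %) of every intronic cytosine with coverage of at least 10 along 6 stretches (x axis, nt from the 5′ end of the stretch), filled circles for MCF10A and open squares for MDA-MB-468, with the range of coverage in each key. MAP4K4, KIF26B and EYA2 hold values at or near 0% and 100%, whereas OOEP holds 15.7% to 35.5% throughout.

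To see how far the sequence of a locus is unique after conversion, the 25-nt window around each member was counted in GRCh37 on both strands, as it is and with every C read as T. This measure was chosen after the data were seen. Outside the rDNA-like stretches the plain window occurred once for 96.8% and 97.8% of members, and the converted window once for 80.8% and 83.2%. Members whose converted window occurred over 100 times were 2.07% and 1.38% of sites but 30.4% (59) and 30.7% (272) of calls. The called share among them was 10.7% in MCF10A (8.39 to 13.6) and 13.0% in MDA-MB-468 (11.6 to 14.5).

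The called share was higher in each class of more copies, in both libraries. Where the converted window occurred once it was 0.446% (96 calls) and 0.305% (385 calls), at 2 to 10 copies 0.770% and 0.794%, and at 11 to 100 copies 1.23% and 1.92%. Exonic sites followed the same order, from 0.754% and 0.599% for a single copy to 3.74% and 8.90% for over 100, but only 2.89% and 6.90% of exonic calls had over 100 copies. Of the 39 calls with a ratio of at least 90% outside the rDNA-like stretches in MCF10A, 27 had over 100 copies, 18 of them in MAP4K4. In MDA-MB-468 it was 8 of 54, and 25 of the 54 were single-copy. With the members of over 100 copies left out, the unconverted share outside rDNA-like stretches was 1.63% (135 calls) in MCF10A and 1.41% (613 calls) in MDA-MB-468. With single-copy windows alone it was 1.66% (96 calls) and 1.38% (385 calls).

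**Figure D4:**
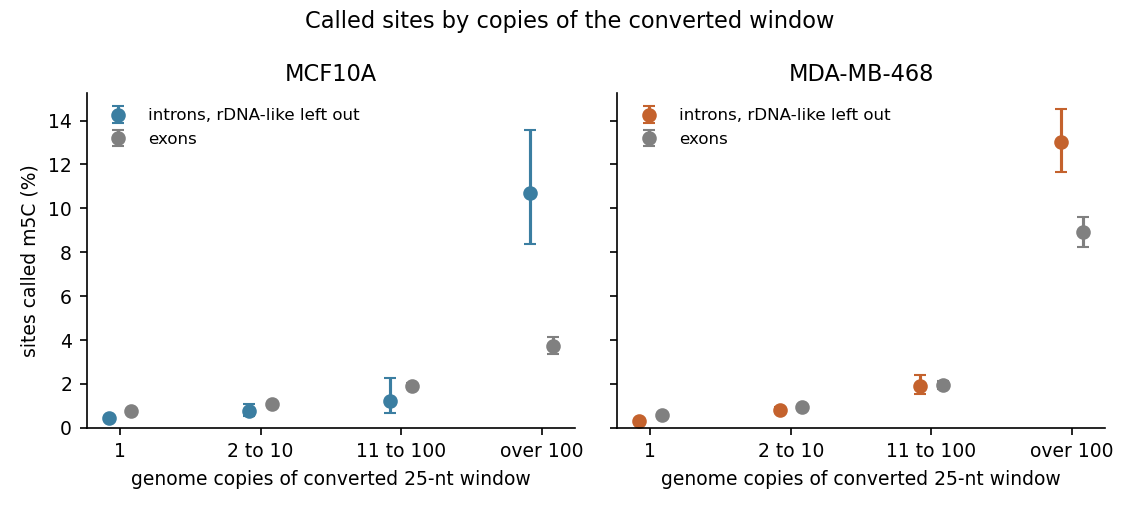
Share of sites called m5C (y axis, %, with 95% Wilson intervals for counting error) by how often the converted 25-nt window occurs in the genome (x axis), for introns without rDNA-like stretches and for exons, in MCF10A (left) and MDA-MB-468 (right). The intronic share goes from 0.446% to 10.7% in MCF10A and from 0.305% to 13.0% in MDA-MB-468.

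Genes differed in this respect. All 18 calls of MAP4K4 and 17 of the 20 of FN1 had over 100 copies, and 27 of the 65 of EGFR, where 20 were single-copy. In each library 4 of the 5 calls of KIF26B and all 4 of EYA2 had over 100 copies. None of the calls of these 2 genes was single-copy. For KRT19 21 of 37 calls were single-copy, for SDC1 20 of 38, for EPPK1 22 of 27, and for ACTB 8 of 11 (MCF10A) and 21 of 24 (MDA-MB-468). For OOEP it was 3 of 9 in each library, and for HMGA1 0 of 7 (MCF10A) and 1 of 11 (MDA-MB-468). Among genes outside the naming rule, picked after their values were seen, every call was single-copy in PTMA (18), the gene of prothymosin alpha, in MDA-MB-468 and in CPNE7 (8) and ERRFI1 (6) in MCF10A, whereas none of the 17 of CASP14, a caspase of keratinocytes, was.

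The rDNA-like stretches ranged widely in depth, and the deepest held most of the counts. GCNT1, a glycosyltransferase of mucin-type glycans, held 35 and 44 members in 1 stretch of intron 12 (chr9:79186656-79186807), with up to 24243 and 164698 counts per site. It matched the contig at 76.8% identity over 211 nt and also an annotated miRNA transcript over 57 nt. HFM1, a meiotic helicase gene, had 80 members in both lines (chr1:91852786-91853135), with 99.7% identity over 366 nt and up to 14117 and 56596 counts. PDE3A (148 nt at 100%), ANKRD30BL, SLCO5A1 (225 nt at 99.1%), PID1, EFCAB11, PMF1 (366 nt at 97%), RYR2, CTNNA3, AAMDC and PHKB supplied the rest in both lines, and USP53 in MDA-MB-468. Most had a low unconverted share: 1.014% in GCNT1 in MCF10A, 1.71% in HFM1 and 1.15% in PDE3A, with 0.730%, 1.34% and 0.917% in MDA-MB-468. Higher shares were found in SLCO5A1 (5.31% and 4.37%), PMF1 (4.46% and 3.62%) and RYR2 (7.78% and 6.41%).

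Calls in the rDNA-like stretches numbered 52 in MCF10A (10.2% of their members) and 73 in MDA-MB-468 (11.2%). Within HFM1 the printed cytosine had 273 of 279 counts unconverted in MCF10A (97.8%, 95.4 to 99.01) and 466 of 483 in MDA-MB-468 (96.5%, 94.4 to 97.8), and the other 79 members of the stretch had at most 10%. SLCO5A1 had 1 site with 417 of 417 counts unconverted in MCF10A (100%, 99.1 to 100) and 1603 of 1606 in MDA-MB-468 (99.8%), and another with 26.5% of 630 and 26.4% of 2417. The printed cytosine of GCNT1 had 47.3% of 55 counts (34.7 to 60.2) and 59.6% of 235 (53.2 to 65.6). That of RYR2, the calcium release channel of heart muscle, had 55.3% of 38 and 51.7% of 145, and a second site at chr1:237766598, covered in MDA-MB-468 alone, had 67.4% of 43. In PMF1 the cytosine at chr1:156186451 had 38.0% of 50 (25.9 to 51.8) and 18.8% of 96 (12.2 to 27.7), and those at chr1:156186501 and chr1:156186514 had 32.4% of 34 and 17.1% of 41 in MCF10A, with 26.1% of 92 and 21.4% of 131 in MDA-MB-468. The intervals of the libraries overlapped at each of these sites that both covered. Whether the counts belong to these genes or to ribosomal RNA cannot be told apart from the tables.

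A second class held members that lay inside an alignment of at least 50 nt, at 95% identity or more, to a transcript of another gene. It had 403 members in MCF10A, with 1.99% unconverted (1.82 to 2.18) and 14 calls (3.47%), and 559 in MDA-MB-468, with 6.80% (6.41 to 7.21) and 96 calls (17.2%). The stretch of TPM4 with the run of 12 calls had such a match. Over all 21 members of that stretch in MDA-MB-468, 28.3% of 269 counts were unconverted (23.2 to 33.9).

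Some called sites stood alone, with no other call within 50 nt, in windows found once in the genome even after conversion. The site in intron 4 of FAM20C, 702 nt from the upstream exon, had 58 of 135 counts unconverted in MCF10A (43.0%, 34.9 to 51.4), and it was not covered in MDA-MB-468 at the minimum of 10. In CTBP1 the site at chr4:1237455 in intron 6, 202 nt before the next exon, had 9 of 35 (25.7%, 14.2 to 42.1) in MCF10A and was called, and 4 of 23 (17.4%, 6.98 to 37.1) in MDA-MB-468, which was not. AKT2 at chr19:40780000 had 6 of 30 (20%) in MCF10A. NPDC1 at chr9:139940196 had 6 of 25 (24.0%) in MCF10A but 4 of 28 (14.3%) in MDA-MB-468, where it was not called. In MDA-MB-468 DEAF1, a transcription factor, had 7 of 35 (20%) at chr11:695550, the amino acid transporter SLC38A10 8 of 29 (27.6%) at chr17:79233119, and the elongation factor subunit EEF1D 16 of 27 (59.3%, 40.7 to 75.5). For CTBP1 and NPDC1 the intervals of the libraries overlapped, so a call in 1 library is not a difference.

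NDUFB7, a subunit of respiratory complex I, had the best covered call of MDA-MB-468 outside the ribosomal class with a ratio of at least 20%. Its printed cytosine, in the first intron 2386 nt from the upstream exon, had 79 of 369 counts unconverted in MDA-MB-468 (21.4%, 17.5 to 25.9) and 12 of 48 in MCF10A (25%, 14.9 to 38.8). The 4 adjoining cytosines of this run were called in both libraries, while the other 4 covered in the window had at most 2.08% and 0.813%. All 4 calls lay in windows found once.

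The next values leave out rDNA-like stretches and describe features the choice of sites did not use. The unconverted share was higher where the 50 nt on either side were very rich in G and C. Above 70% G+C it was 2.80% (2.64 to 2.98) and 2.42% (2.35 to 2.49), with 2.36% and 1.74% of sites called, whereas between 50% and 60% it was 1.64% and 1.37%. Exonic sites had 2.84% and 2.37% above 70%, with 2.66% and 2.05% called. At 40% G+C or less the intronic share was 2.90% and 2.32%, and it was 1.97% and 2.07% without the windows of over 100 copies. With single-copy windows alone it was 1.98% and 1.61%, whereas above 70% G+C it was 2.60% and 2.41%.

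Pairing in the predicted fold went with the share at its upper end. Sites with a pairing probability above 0.9 had 2.33% (2.22 to 2.44) unconverted and 2.07% (2.03 to 2.12), with 1.60% and 1.37% called, and those between 0.25 and 0.5 had 1.46% and 1.32%, with 0.520% and 0.371% called. Without the windows of over 100 copies the top class in MCF10A was 2.21%, with 1.35% called. Sites at or below 0.25 had 2.67% in MCF10A, which was 1.896% without MAP4K4 and 1.55% without those windows, and 1.45% in MDA-MB-468.

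**Figure D5:**
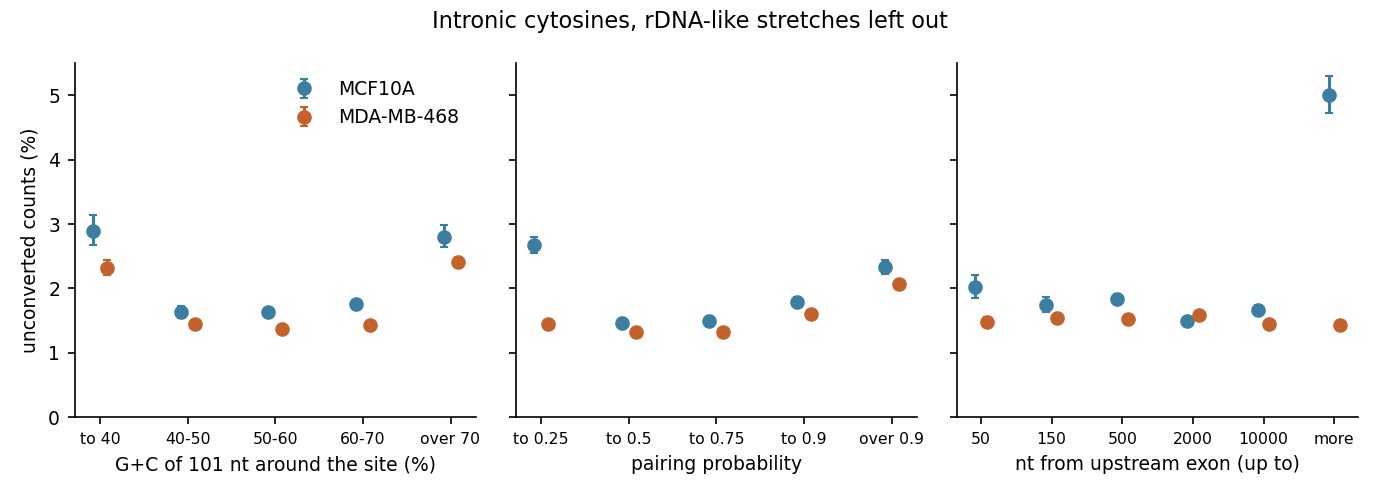
Unconverted share of counts (y axis, %, with 95% Wilson intervals for counting error) of intronic cytosines without rDNA-like stretches, by G+C content of the site and 50 nt on either side, by predicted pairing probability and by distance from the upstream exon (x axes), for both libraries. The share is highest at the ends of the G+C scale and above a pairing probability of 0.9 in MDA-MB-468, and the MCF10A value of 5.01% beyond 10 kb holds MAP4K4. Windows of every number of copies are included, and with single-copy windows alone the share at 40% G+C or less is 1.98% and 1.61%.

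By position in the intron the classes farthest from an exon stood apart in MCF10A. In MDA-MB-468 the share lay between 1.43% and 1.58% in all 6 classes of distance from the upstream exon. In MCF10A it lay between 1.5% and 2.02% up to 10 kb and was 5.01% beyond, which fell to 2.88% without MAP4K4 and to 2.42% without windows of over 100 copies. Beyond 10 kb from the downstream exon it was 3.04% in MCF10A, with 3.07% called, beside 1.59% to 2.07% in the nearer classes, and it fell to 2.10% without MAP4K4 and to 1.89% without those windows. First introns had 2.32% and 1.75%, later ones 1.75% and 1.46%, and 1.901% of first-intron sites were called in MCF10A against 0.602% of later ones (0.788% and 0.548% in MDA-MB-468).

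All 16 trinucleotides centred on C were read. The lowest shares in MCF10A were at CCT (1.15%) and TCT (1.38%) and the highest at GCG (2.41%) and CCG (2.36%). In MDA-MB-468 TCT had 0.831%, TCC 0.991% and CCG 2.18%. Cytosines of CG had 2.15% and 1.85%, others 1.77% and 1.47%. The context CNGGG, known from NSUN2 targets, had 2.46% in MCF10A (1206 sites, 18 calls) and 2.42% in MDA-MB-468 (7134 sites, 62 calls). The remaining contexts had 1.77% and 1.46%. Of the CNGGG sites 1.49% and 0.869% were called, beside 0.693% and 0.569% of the remaining ones. CTCCA, known from NSUN6 targets, had 1.504% (189 sites, 1 call) and 1.27% (987 sites, 7 calls). The higher values at CNGGG were not particular to introns. Exonic CNGGG sites had 2.97% and 2.69% unconverted, with 2.16% and 1.78% called. In the remaining exonic contexts 0.801% and 0.6805% were called. These classes share base composition and neighbouring sites, and none of the differences was tested.

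Genes known for kept introns, where read, had a median number of members near that of all genes in MCF10A and below it in MDA-MB-468. Of 28 such genes, most of them splicing factors and their kinases, 12 and 15 had members, with 207 and 229 members in all. Over all 20176 protein-coding genes 3.22% and 9.69% had a member, whatever their expression, and the difference was not tested. The median listed gene with members had 9.5 and 7, beside 9 and 15 over all genes with members. SRSF3, a splicing factor, held the only 2 calls, in MDA-MB-468, with 7.10% of 352 counts unconverted. SRSF6 had 65 and 37 members with 2.25% and 2.49%, SRSF11 35 in MCF10A with 0.589%, TRA2A 42 in MDA-MB-468 with 2.79%, SRSF7 30 with 7.40% and no call, and the helicase DDX5 12 and 27. Of 30 protein-coding hosts of intronic snoRNAs, 12 had members in each line (179 and 457), led by the elongation factor EEF2 with 60 and 223. NOP56, a core snoRNP protein, had the 1 call of this list, in MCF10A, with 7.25% of 386 counts unconverted, and 3.45% of 261 without a call in MDA-MB-468. RPL13A had 15 and 36 members, RPL10 12 and 30, RPL3 9 and 35, and EIF4A1 17 and 32, all without a call.

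The 4 genes around EGFR on chromosome 7 were read in introns in MDA-MB-468 alone. EGFR, VOPP1, LANCL2 (460) and SEC61G (11) held 18036 members there, 1.25% unconverted (1.22 to 1.28), with 106 calls (0.588%). None had a member in MCF10A. LANCL2 had 6 calls and 1.94% unconverted, and all 6 lay in windows of over 100 copies. SEC61G, a translocon subunit, had 1 call and 6.01%, in a stretch like another transcript.

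Both libraries covered 8513 members in common, 31.3% of those of MCF10A and 5.59% of those of MDA-MB-468, in 330 genes. Of these 120 and 140 were called, and 95 in both, which is 79.2% and 67.9% of each. For exonic sites the shares were 47.1% and 62.9%. The 95 sites lay in 19 genes, and 48 of them were rDNA-like. All 510 rDNA-like members of MCF10A were covered in both libraries, and 52 were called there. This deeply read class raised the intronic share of MCF10A, so that share is no like comparison with exons. How much of the gap from exons the class makes up was not worked out. Outside that class the sites called in both libraries were in ACTB (11), OOEP (9), HMGA1 (7), a chromatin protein, KIF26B (5), EYA2 (4), NDUFB7 (4), MGAT4B (2), VARS1 (2), ABCC3 (1), CTBP1 (1) and EEF1D (1). Among shared members with coverage of at least 20 in each, ratios had a Pearson correlation of 0.939 and a Spearman correlation of 0.322 over 1676 sites, and 0.927 and 0.207 over 1211 outside the rDNA-like class. These are descriptions across sites that share reads and sequence context. Outside the rDNA-like class, the sites of KIF26B (5) and EYA2 (4) had 93.1% to 100% in both libraries at this coverage. No call of either gene had a single-copy converted window. The other sites called in both at this coverage, in OOEP and NDUFB7, had at most 35.5%. The Pearson correlation without KIF26B and EYA2 was not worked out, so it does not show agreement at the remaining sites.

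A two-sided Fisher's exact test between the libraries at each of the 838673 shared sites found 14 intronic members past a false discovery rate of 0.05. All 14 were lower in MDA-MB-468, beside 0.0832% of all shared sites that were lower and 0.0215% that were higher there. They were rDNA-like without exception, 13 in GCNT1 and 1 in HFM1. The match to ribosomal DNA had 76.8% identity in GCNT1 and 99.7% in HFM1. Whether the class holds for GCNT1 was not tested. The largest difference was at chr9:79186719 in GCNT1, with 57 of 1099 counts unconverted (5.19%) for MCF10A against 146 of 5734 (2.55%) for MDA-MB-468, a fall of 2.64 percentage points (adjusted p = 0.0121, Fisher's exact test). The HFM1 site at chr1:91852946 had 1.79% of 4421 counts and 0.979% of 20231 (adjusted p = 0.0146, Fisher's exact test).

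No site differed outside the rDNA-like stretches. Of the 8003 members tested there, 40 had an unadjusted p under 0.05 in Fisher's exact test, 30 lower and 10 higher in MDA-MB-468, and the smallest adjusted p was 0.896. Over the same sites 1.99% of counts were unconverted in MCF10A (1.92 to 2.06) and 1.66% in MDA-MB-468 (1.61 to 1.72). The test compares 2 libraries and not the cell lines, and a p that misses the threshold does not show equal values at this depth.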

How the data were processed

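RNA bisulfite sequencing of MCF10A and MDA-MB-468 was analysed, 1 library each. The authors deposited, per cytosine and strand, counts of unconverted and converted reads, not normalized. The methods name poly(A) selection, bisulfite at 60 degrees, trimming with Trim Galore, alignment and calling with MeRanTK and hg19, while the submitters' processing notes name Trim Galore, Bismark and hg19. The lowest deposited coverage was 5. Reads placed at the wrong copy of a repeat, or left unconverted by pairing, count as unconverted.

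Members and gene lists were chosen with earlier results of these data known. Sites with coverage of at least 10 were placed on GENCODE v44lift37. Calls came from Fisher's exact test and Benjamini-Hochberg adjustment (SciPy 1.17.1, NumPy 2.4.6, pandas 2.3.3, numba 0.67.0, Python 3.11.15), checked on simulated data. The 8 genes with the most members and the 6 with the most calls per line, the 6 largest of each list, and called sites by coverage (ratio of at least 20%), shared ratio, isolation or difference were named. Pairing was predicted with RNAplfold of ViennaRNA 2.7.2 (window 300 nt, pairing distance 150 nt, 70 degrees). Stretches were aligned with BLAST 2.17.0 (at least 50 nt, with no minimum of identity for ribosomal DNA). Sequences were read with pysam 0.24.0 from GRCh37. Alternatives changed the coverage minimum, exon set, distance to exons, pairing, CG context, background, test and ratio minimum. Depth was 66290255 counts in MCF10A and 78345956 in MDA-MB-468. Sequences on chromosome 8 are not shown, and 1 further stretch is not reported here.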

Additional observations from a re-analysis of the deposited data

How the results depend on the processing

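No paired analysis was possible because each line had 1 library, and no replicate could be left out. The unconverted share of intronic counts, 1.67% in MCF10A and 1.24% in MDA-MB-468, was 1.64% and 1.18% at a coverage minimum of 20, 1.69% and 1.27% when only exons of basic transcripts were removed, 1.89% and 1.48% at least 50 nt from an exon, 1.57% and 1.08% without sites of pairing probability over 0.5, 1.62% and 1.21% without CG sites, and 2.01% and 1.59% without GCNT1, the gene with the most intronic counts in each line. The number of calls, 246 and 958, was 145 and 408 at a coverage minimum of 20 and 87 and 231 without paired sites, and with only exons of basic transcripts removed it was 389 in MCF10A. The share of MDA-MB-468 calls with another within 10 nt, 87.2%, was 83.7% against the background of the introns themselves. The intronic share of all counts, 2.38% in MCF10A and 11.6% in MDA-MB-468, was 2.44% and 11.3% at a minimum of 20, 3.07% and 12.9% with exons of basic transcripts, and 1.63% and 7.63% at least 50 nt from an exon. The 14 sites that differed between the libraries were 6 when the odds ratio of the pooled backgrounds was allowed for and 5 without paired sites.

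The next alternatives were chosen after seeing the data. Without rDNA-like stretches the unconverted share was 1.80% and 1.51%, the intronic share of counts 0.817% and 3.37%, and 0 sites differed (40 at an unadjusted p under 0.05 in Fisher's exact test). With members like another transcript left out too, the values were 1.79% and 1.48%, 0.782% and 3.35%, and 0 sites. Without windows of over 100 converted copies the unconverted share was 1.61% and 1.21%, the intronic share of counts 2.37% and 11.5%, and the share of MCF10A calls with another within 10 nt 73.3% in place of 79.3%. With single-copy windows alone the unconverted share was 1.9997% and 1.57%, the calls 121 and 419, the neighbour share 70.2% and 82.3%, the intronic share of counts 0.842% and 3.93%, and 4 sites differed. The other 37 planned and 12 added values of these results moved less than 1.5 times for counts, or less than the counting interval. Of the calls at named sites 148 kept their side of the threshold. CTBP1 at chr4:1237455 in MDA-MB-468 passed at a minimum of 20 (adjusted p = 0.0487, Fisher's exact test) and against the intronic background (0.0173), as did NPDC1 against the latter (0.0329, exact test), and GCNT1 at chr9:79186719 in MDA-MB-468 did not against all sites (0.176, exact test). The causes were not tested. A coverage of 10 to 20 limits calls to ratios of 20% to 40% or more.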
